A study of Homo sapiens with 6 samples.

Results

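Iron uptake, storage and iron-sensing genes were examined in cultures of SH-SY5Y, a human neuroblastoma line of sympathetic origin, exposed to manganese. The set holds 10 genes: the transferrin receptors TFRC and TFR2, the ferritin subunits FTH1 and FTL, the iron regulatory proteins ACO1 and IREB2, the iron-sensing ubiquitin ligase adaptor FBXL5, the ferritin autophagy receptor NCOA4, the mitochondrial iron importer SLC25A37 and the heme oxygenase HMOX1. The genes were taken by name, and each probe set annotated to exactly 1 of these symbols was used. This gave 27 of the 49395 probe sets of the array, for 8 of the 10 genes. FTH1 and IREB2 were not analysed here. The study comprised 3 arrays from cultures given 100 µM manganese for 24 h, a dose stated as the LC50 divided by 5, and 3 arrays from untreated cultures. All cultures were of the same line and shared their growth medium, a mix of MEM and F12 with serum added. The comparison addresses which transcripts differ in cells exposed to manganese at this dose.

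Cells take up transferrin-bound iron through TFRC, store it in ferritin shells of heavy and light subunits, and release it again when NCOA4 delivers ferritin to lysosomes. The 2 iron regulatory proteins, encoded by ACO1 and IREB2, bind hairpins called iron-responsive elements (IREs) when iron is scarce. Binding in the 3′ untranslated region stabilises TFRC mRNA, whereas binding in the 5′ untranslated region blocks translation of ferritin mRNA without necessarily changing its amount. FBXL5, which is stable only in the presence of iron and oxygen, marks IREB2 protein for degradation. Manganese can travel on transferrin and on the divalent metal transporter, and can compete with iron at such sites. Arrays measure transcript amount alone, so translation of ferritin and stability of the IREB2 protein lay outside these measurements.

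The hairpin is shown for FTL, whose transcript is compared below, and for ALAS2, the erythroid enzyme of heme synthesis, which carries one of the same kind. Capitals mark the 6-base loop CAGTGN, preceded by 5 stem bases and an unpaired C. The FTL stretch lies at chr19:48965329-48965358 on the plus strand and the ALAS2 stretch at chrX:55030940-55030969 on the minus strand (RefSeq, GRCh38.p14).
FTL: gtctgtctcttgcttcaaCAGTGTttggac
ALAS2: ttcgttcgtcctCAGTGCagggcaacaggt
This pattern, CNNNNNCAGTGN, searched on the sense strand in the 50 bases after the annotated start, occurred in 586 of 35116 start-site windows, or 1.67%. With the further demand that the 5 bases on either side of the loop pair (G with T allowed), 8 windows remained (0.0228%), and those of FTL and ALAS2 were among them. The windows of TFRC, ACO1, IREB2, FBXL5 and NCOA4 held no such paired match, which says only that no such paired pattern lies in this stretch, since the TFRC elements lie in its 3′ untranslated region.

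On the log2 scale of the deposited values, the probe set with the highest mean stood for each gene, and 13407 genes passed a filter at the 40th percentile of the arrays on at least 3 arrays. All 8 measured member genes passed, with 23 of their 27 probe sets. None of the 8 genes and none of the 23 probe sets differed between manganese and control at a limma adjusted p under 0.05, with adjusted p between 0.142 and 0.642 for the genes. Among all genes tested 0.142% were called, 0.134% as higher and 0.00746% as lower in manganese, and among all 29871 probe sets that passed 0.107% were called. At an unadjusted p under 0.05 there were 3 of the 8 genes, TFR2, SLC25A37 and HMOX1, against 12.8% of all genes. The member genes differed by a median of 0.35 in absolute log2 value, against 0.14 over all genes tested. Their signed median was -0.30, against 0.02 over all genes tested, with 3 positive and 5 negative differences. In these bulk samples fewer cells of a type and less RNA per cell cannot be told apart.

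The arrays of the controls differed from each other more than those of the manganese group. Taken across the genes tested, which are not independent replicates, Pearson r between pairs of manganese arrays was 0.993 to 0.996 and between pairs of control arrays 0.975 to 0.992. The mean of the 24 probe sets that read bacterial poly(A) control transcripts, spiked in before labelling, lay between 7.70 and 7.83 on the manganese arrays, at 7.69 on control 2, at 6.09 on control 1 and at 5.82 on control 3. Control 2 was therefore the control nearest the manganese arrays in spike-in level, and differences against control 2 alone are given beside the main ones. The part of array quality in the results was not tested. All 9 measured markers of sympathetic neuroblasts, among them HAND2, GATA2, PHOX2A and DBH, passed the filter and none was called. STMN2 differed by -0.71 (limma adjusted p 0.297) and ISL1 by -0.58 (limma adjusted p 0.351), and the others by -0.15 to 0.22. Markers of other cell types were mixed in level. Of the 6 macrophage markers, PTPRC, CD163 and LYZ lay at mean percentiles between 6.19 and 12.6 of the arrays and below the filter, whereas AIF1 lay at 42.9 and CD68 and CSF1R at 64.6. The 4 measured erythroid markers lay between 23.3 for EPB42 and 74.2 for HBB, the 6 fibroblast markers between 11.02 for LUM and 83.5 for PDGFRB, and the 5 hepatocyte markers between 23.9 for ALB and 95.9 for HAMP. HAMP was read by a probe set whose suffix marks probes shared with other transcripts, so its level may not be that of HAMP alone. None of these markers that passed the filter was called. Their part in the result was not tested.

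Control 1 was the highest or the lowest of the 6 arrays for all 8 member genes, and for 22 of the 23 probe sets that passed. Over all 13407 genes it held such an end position for 65.1%, against 21.9% to 33.7% for the other 5 arrays. It was the highest array for TFRC, ACO1, FBXL5, NCOA4 and SLC25A37, and the lowest for TFR2, FTL and HMOX1. For all 8 genes the difference against control 2 alone was smaller in absolute size than the main one. The share of all genes for which this held was not counted. The median absolute difference against control 2 was 0.14 for the member genes and 0.12 over all genes tested. For TFRC and FBXL5 the difference against control 2 turned sign. The control SD exceeded the manganese SD for all 8 genes and for 74.7% of all genes.

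**Figure D1:**
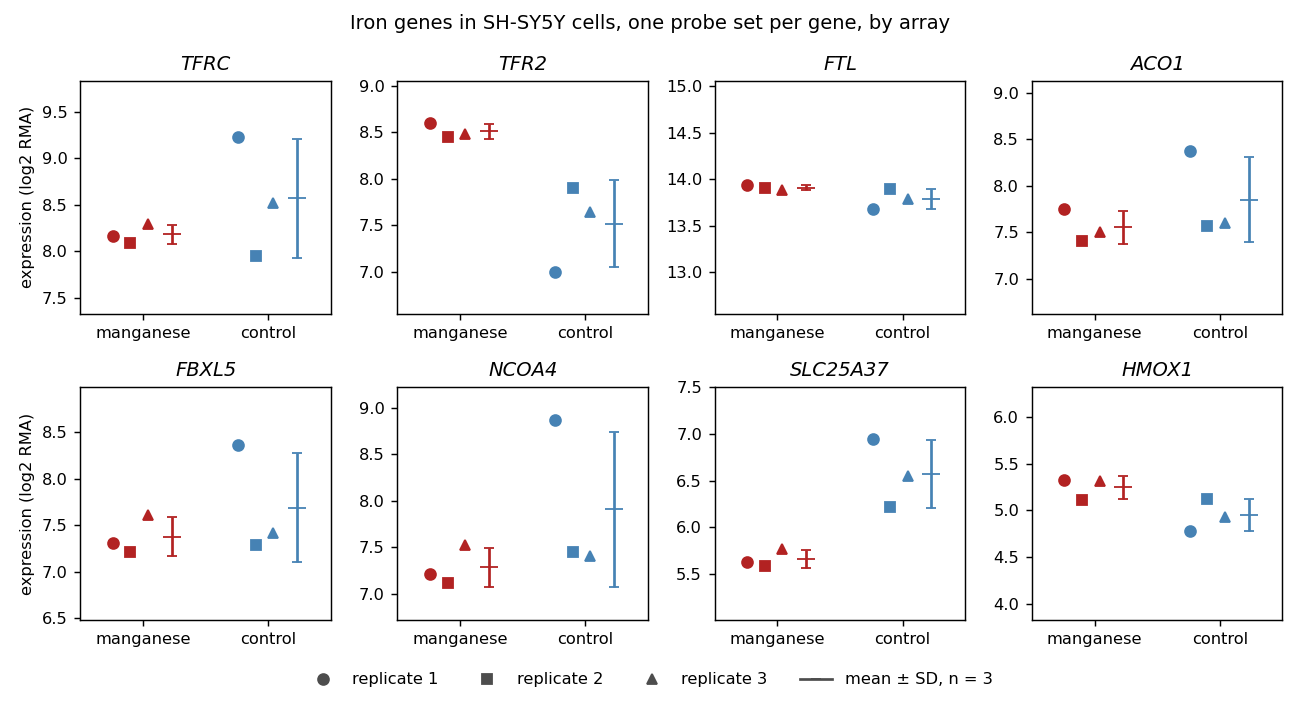
Expression (log2 RMA) of the 8 measured iron genes on each array, with the 3 manganese arrays left and the 3 control arrays right, and mean ± SD beside them (n = 3). Each panel spans the same log2 range, and control 1 (circle) lies at an end of the 6 arrays in every panel.

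The transferrin receptors were the uptake genes of the set. Their main differences had opposite signs, but that of TFRC turned sign against control 2 alone and its interval included 0. TFR2, a second receptor for transferrin best known as an iron sensor of liver and erythroid cells, was read by a single probe set. TFR2 stood at 8.60, 8.45 and 8.48 on the manganese arrays, against 7.00, 7.91 and 7.65 on the control arrays. All manganese arrays lay above all control arrays, with control 1 the lowest. The log2 difference was 0.99 (SE 0.21, 95% interval 0.50 to 1.49), a 1.99-fold difference of 8.51 ± 0.08 in manganese and 7.52 ± 0.47 in control (SD, n = 3), with a limma adjusted p of 0.174. By unadjusted p (0.0017) TFR2 ranked 132nd of 13407 genes. Against control 2 alone the difference was 0.60.

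TFRC, the receptor that brings transferrin-bound iron into most dividing cells, had 3 probe sets. At its brightest probe set TFRC stood at 8.17, 8.09 and 8.29 on the manganese arrays, against 9.23, 7.95 and 8.52 on the control arrays. The manganese values lay inside the span of the controls. The log2 difference was -0.39 (95% interval -1.04 to 0.26, limma adjusted p 0.577), but 0.23 against control 2 alone and -0.06 without control 1. The next TFRC probe set read 6.73, 6.65 and 6.80 on the manganese arrays, against 8.09, 6.84 and 7.28 on the control arrays. Here all manganese arrays lay below the controls, with a difference of -0.68 (limma adjusted p 0.376 over probe sets) that was -0.12 against control 2. The third probe set lay below the filter on all 6 arrays and differed by 0.15.

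The 250 bases before the TFRC start are shown because TFRC is a known target of hypoxia-inducible factors, whose binding core can read ACGTG. They lie at chr3:196082091-196082340 on the minus strand (RefSeq, GRCh38.p14), with ACGTG in capitals.
TFRC: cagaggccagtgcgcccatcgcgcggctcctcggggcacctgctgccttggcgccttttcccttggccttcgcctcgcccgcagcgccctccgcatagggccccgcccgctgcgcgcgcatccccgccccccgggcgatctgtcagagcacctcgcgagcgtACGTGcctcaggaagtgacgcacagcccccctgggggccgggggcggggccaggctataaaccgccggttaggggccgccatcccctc
This form of the core occurred 1 time here, from base -88 relative to the start. It was found on either strand in 18.5% of all windows of this length, and other forms were not searched. The windows of FTL and FBXL5 held it 1 and 2 times, and those of ACO1, NCOA4 and IREB2 held none. TGACNNNGC, the core of the antioxidant response element, was found in the FBXL5 window alone among the 6 genes searched and in 10.9% of all windows. The starts of TFR2, FTH1, HMOX1 and SLC25A37 were not searched. A match describes the sequence and shows no binding.

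FTL, the light subunit of ferritin, gave high signals that varied little. It was read by 8 probe sets, all of which carry the Affymetrix suffix for probes shared with other transcripts, so related sequences may add to the signal. The probe sets that stand for TFRC, ACO1, FBXL5, NCOA4 and SLC25A37 carry such a suffix too. The brightest FTL probe set stood at 13.94, 13.91 and 13.89 on the manganese arrays, against 13.68, 13.90 and 13.79 on the control arrays. The groups overlapped through control 2. FTL thus differed by 0.12 on the log2 scale (SE 0.11, 95% interval -0.12 to 0.36, limma adjusted p 0.642), and 0.01 against control 2 alone. Taken over the 8 probe sets, FTL means ran from 12.96 to 13.91 in manganese and from 12.80 to 13.79 in control. The 8 differed by 0.11 to 0.20, and by -0.01 to 0.09 against control 2. In 4 of them, the less bright ones, the manganese arrays all lay above the controls, where 10.5% of all genes tested did so. The share over all probe sets was not counted. The margin was narrow, as at the dimmest, where manganese 3 stood at 12.93 and control 2 at 12.91. The 8 probe sets share their target and are not independent. The brightest probe set lay at the 99.8 to 99.9 percentile of every array, and whether its signal was near saturation was not tested, so its interval sets no bound on the transcript.

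NCOA4, the receptor that carries ferritin to lysosomes for iron release, had 1 probe set above the filter. NCOA4 stood at 7.21, 7.12 and 7.52 on the manganese arrays, against 8.87, 7.45 and 7.41 on the control arrays. The groups overlapped, and control 1 alone lay far above the other 5 arrays. NCOA4 differed by -0.62 on the log2 scale with a wide interval (-1.46 to 0.21, limma adjusted p 0.490), and it was -0.16 against control 2 and -0.14 without control 1. The other NCOA4 probe set, below the filter on all arrays, read 2.98, 3.00 and 2.99 in manganese, against 3.27, 3.18 and 3.24 in control. That set did not overlap between the groups, but it lay at the dim end of every array.

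**Figure D2:**
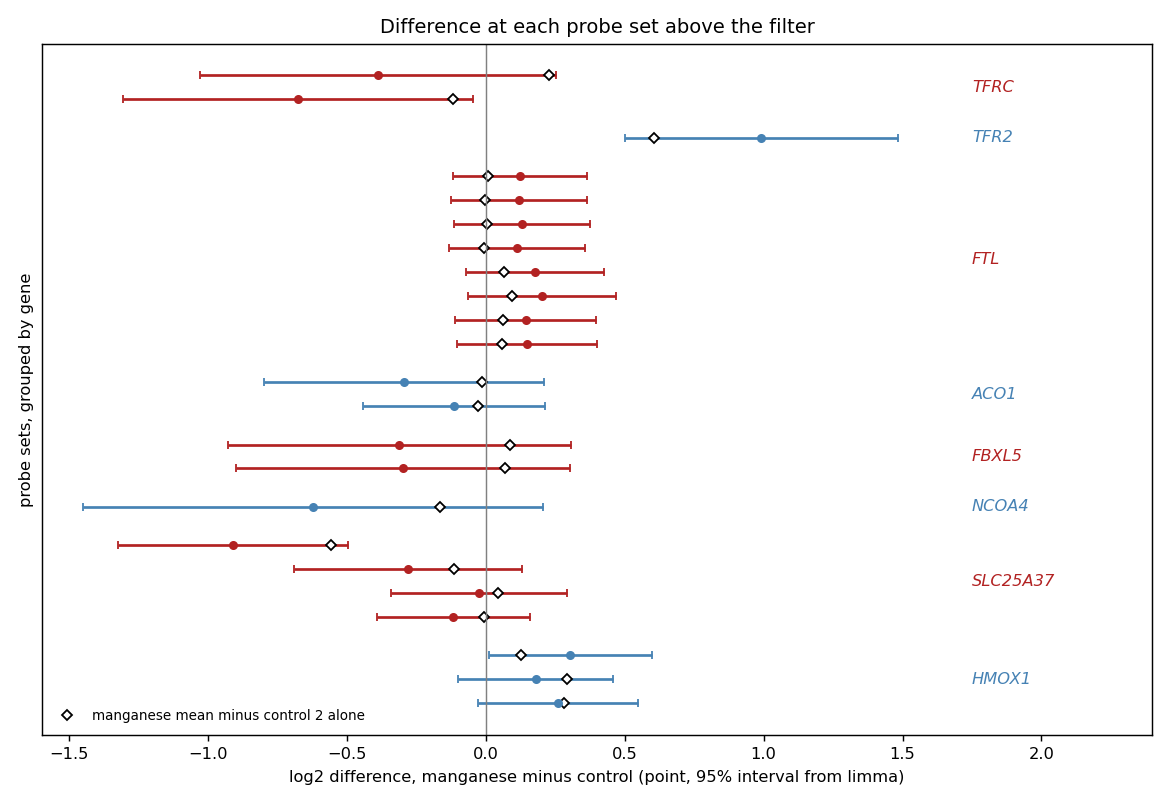
Log2 difference, manganese minus control, at the 23 probe sets above the filter, grouped by gene, with 95% intervals from limma (filled points) and the difference against control 2 alone (open diamonds). TFR2, 1 TFRC, 1 SLC25A37 and 1 HMOX1 probe set have intervals that leave out 0, and none passed after adjustment.

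Among the iron sensors, ACO1 encodes the protein that is a cytosolic aconitase when it holds an iron-sulfur cluster and an IRE-binding protein when it does not. Its brightest probe set stood at 7.75, 7.41 and 7.50 on the manganese arrays, against 8.37, 7.57 and 7.60 on the control arrays. The groups overlapped, and controls 2 and 3 lay within the manganese range. The log2 difference was -0.30 (95% interval -0.80 to 0.21, limma adjusted p 0.588), -0.03 without control 1 and -0.02 against control 2. The next ACO1 probe set read 5.62, 5.56 and 5.55 in manganese, against 5.98, 5.61 and 5.48 in control, a difference of -0.12 with overlapping groups, and the last, below the filter, differed by -0.09.

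FBXL5 was read by 2 probe sets that gave nearly the same difference. At the brighter, FBXL5 stood at 7.31, 7.21 and 7.61 on the manganese arrays, against 8.36, 7.29 and 7.42 on the control arrays. At the other it stood at 6.60, 6.60 and 6.87 in manganese, against 7.66, 6.62 and 6.69 in control. At both, control 1 was highest and the remaining arrays overlapped. The log2 differences were -0.31 (95% interval -0.94 to 0.31, limma adjusted p 0.642) and -0.30, and both turned sign without control 1, at 0.02 and 0.04, and against control 2, at 0.09 and 0.07.

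SLC25A37, also called mitoferrin 1, imports iron into mitochondria for heme and iron-sulfur cluster synthesis. Its brightest probe set stood at 5.62, 5.58 and 5.76 on the manganese arrays, against 6.95, 6.21 and 6.54 on the control arrays. All manganese arrays lay below all control arrays. The log2 difference was -0.91 (SE 0.18, 95% interval -1.33 to -0.49), or 0.532-fold, with means of 5.66 ± 0.10 in manganese and 6.57 ± 0.37 in control (SD, n = 3) and a limma adjusted p of 0.142. It was -0.56 against control 2 and -0.72 without control 1, and by unadjusted p (0.00102) the gene ranked 93rd of 13407. The other probe sets did not share this size, and only the brightest carries the suffix for probes shared with other transcripts. The next in brightness read 4.99, 5.35 and 5.68 on the manganese arrays, against 5.74, 5.46 and 5.67 on the control arrays, and differed by -0.28. A further one read 5.00, 5.09 and 5.01 in manganese, against 5.33, 4.99 and 4.86 in control, a difference of -0.03. Both overlapped between the groups, as did the remaining ones, which differed by -0.12 and, below the filter, by -0.17. With the mean of the passing probe sets in place of the brightest, the difference was -0.33 (limma adjusted p 0.358).

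HMOX1, the inducible enzyme that opens heme and frees its iron, is a common marker of oxidative stress. Its brightest probe set stood at 5.33, 5.11 and 5.32 on the manganese arrays, against 4.78, 5.13 and 4.93 on the control arrays. The groups overlapped through manganese 2 and control 2. The log2 difference was 0.30 (SE 0.13, 95% interval 0.01 to 0.60, limma adjusted p 0.383), or 1.23-fold. The other 2 probe sets differed by 0.18 and 0.26. The dimmest read 4.58, 4.57 and 4.54 on the manganese arrays, against 4.12, 4.28 and 4.51 on the control arrays. Its groups did not overlap, by a narrow margin, but it lay below the filter on controls 1 and 2. It thus passed the filter through the manganese arrays and control 3. The middle one read 5.00, 4.74 and 4.82 in manganese, against 4.65, 4.56 and 4.81 in control, and overlapped. Against control 2 the 3 differed by 0.12, 0.29 and 0.28. All 3 lay close to the filter, with means of 4.56 to 5.25 in manganese and 4.30 to 4.95 in control, where the 40th percentile of the arrays lay between 4.37 and 4.40.

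**Figure D3:**
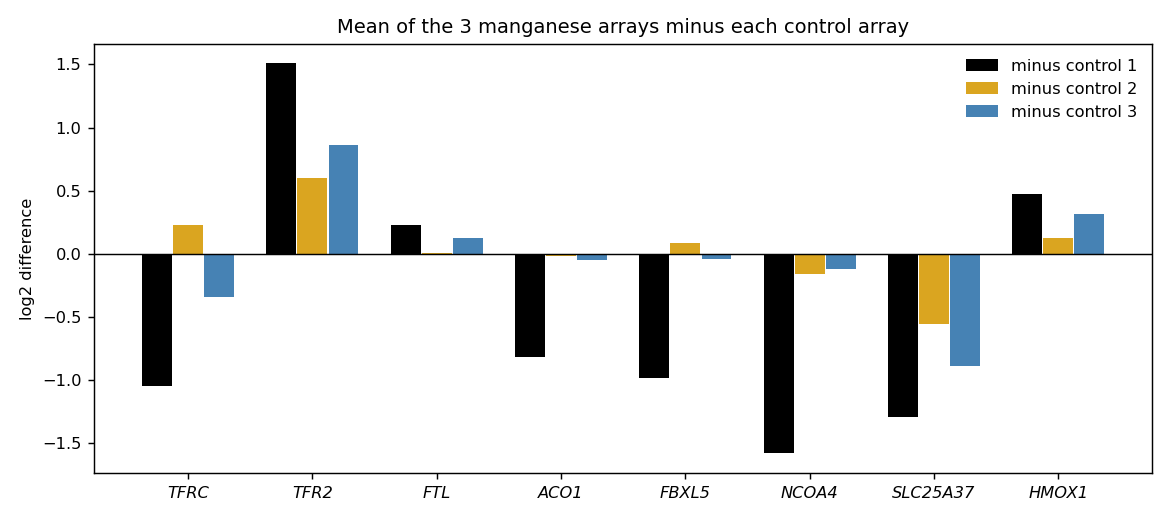
Mean of the 3 manganese arrays minus each control array (log2), for the probe set that stands for each gene. Against control 1 the differences range from -1.58 for NCOA4 to 1.51 for TFR2, and TFR2 and SLC25A37 keep a difference of over 0.5 in absolute size against each of the 3 controls.

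TFR2 and SLC25A37 were the 2 of 8 member genes whose groups did not overlap, against 19.8% of all genes tested. Their calls depended on the settings of the fit. When each array was centred on 7 housekeeping genes, both passed the limma test, TFR2 at 1.05 with an adjusted p of 0.00044 and SLC25A37 at -0.86 with an adjusted p of 0.00915, while the number of probe sets called over the whole array grew to 250 higher and 170 lower. In that fit the SE was nearly the same for every member gene. It was 0.215 for TFR2 and 0.214 for FTL, whose SEs in the main fit were 0.215 and 0.105. The p-values there thus took little from the spread of each gene itself. Without control 2 SLC25A37 also passed, at -1.09 with an adjusted p of 0.0438. Over the 6 fits that each left out 1 array, TFR2 ranged from 0.73 to 1.19 (adjusted p 0.0549 to 0.691) and SLC25A37 from -1.09 to -0.72 (adjusted p 0.0438 to 0.607).

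The genes whose levels followed TFRC and HMOX1 most closely over the 6 arrays are given as a description. For TFRC they were PSPH, SEC14L1, CHD4 and TMEM81, with Pearson r between 0.997 and 0.998. For HMOX1 they were EPHX2, SSTR4, SERINC2 and TMEM220, with r between 0.990 and 0.994. Over these 6 arrays 288 genes exceeded r = 0.95 with TFRC and 107 with HMOX1. TFRC spanned 1.28 among the control arrays and 0.20 among the manganese arrays, so its r values draw largely on differences between controls. For HMOX1 these spans were 0.34 and 0.22. Whether the genes are regulated together was not tested.

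Other genes of iron handling were read from 8 lists holding 89 genes, of which 70 were tested. None was called in either direction by limma. At an unadjusted p under 0.05 there were 9 of the 70, where 12.8% of all genes tested lay, and 14 of the 70 had non-overlapping groups, 6 higher and 8 lower in manganese, where 10.5% of all genes tested were higher and 9.26% lower. Of the 70, 36 had positive and 34 negative differences, with a median of 0.01, against 0.02 over all genes tested.

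**Figure D4:**
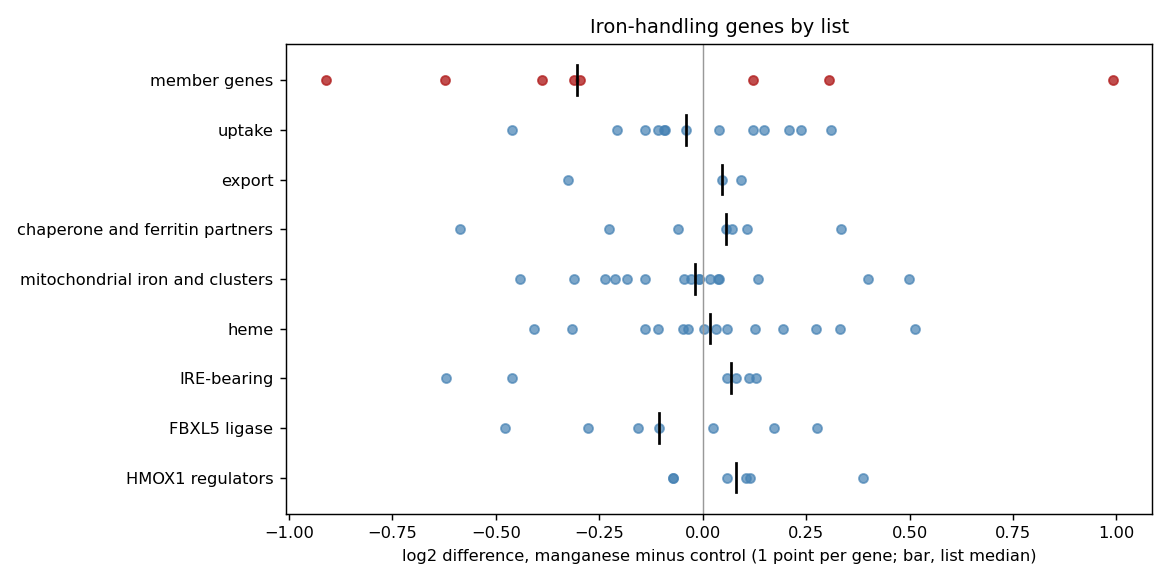
Log2 difference, manganese minus control, of the member genes and of 8 further lists of iron-handling genes, with 1 point per gene and a bar at the median of each list. The medians of the 8 further lists lie between -0.11 for partners of FBXL5 and 0.08 for regulators of HMOX1, that of the member genes at -0.30, and no gene shown passed the limma test.

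In the uptake list, 0 of 13 tested genes were called. SLC11A2, the divalent metal transporter that moves iron and manganese across membranes, had the smallest p, with 6.68 ± 0.16 in manganese and 7.14 ± 0.31 in control, a difference of -0.46 (limma adjusted p 0.347) that was -0.20 against control 2. SLC22A17, a lipocalin receptor, differed by 0.31, TF, which encodes transferrin, by 0.24, and CYBRD1, a ferric reductase, by -0.21. In the export list, 3 of 9 genes were tested and none was called. APP, whose protein has been linked to neuronal iron export, differed by -0.32, and by 0.04 against control 2. HAMP, which encodes the iron hormone hepcidin, differed by 0.09 at a probe set with the suffix for shared probes. TMPRSS6, a protease that restrains hepcidin, differed by 0.05. SLC40A1, the iron exporter ferroportin, was among the 6 that did not pass the filter.

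Of the 7 tested iron chaperones and ferritin partners none was called. HERC2, a ligase reported to act on NCOA4, had a mean of 6.40 in manganese and 6.99 in control (difference -0.59, limma adjusted p 0.332), but -0.15 against control 2 and -0.04 at its other probe set. PCBP4 differed by 0.33, TAX1BP1, an autophagy receptor that works with NCOA4, by -0.23, and PCBP2, which hands iron to ferritin, by 0.11. Of the 16 tested genes of mitochondrial iron and clusters none was called, with a median of -0.02. FDX1, a mitochondrial ferredoxin, stood at 8.58 ± 0.12 in manganese and 8.08 ± 0.20 in control. The difference was 0.50, with the lowest limma adjusted p of all 70 genes, 0.245. For FDX1 it was 0.33 against control 2 alone and 0.18 at the least changed of its 3 probe sets. ISCA1, a late cluster assembly factor, differed by 0.40, with 0.01 at the least changed of its 3 probe sets. BOLA3 differed by -0.31 and HSCB, a cochaperone of cluster transfer, by -0.21.

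Of 14 tested heme genes none was called, with a median of 0.02. BLVRB, a biliverdin reductase, had a mean of 8.00 in manganese and 7.48 in control, a difference of 0.51 (limma adjusted p 0.288) that was 0.20 against control 2. ALAD, an early enzyme of heme synthesis, differed by -0.41, with 0.06 at its other probe set, and the later enzymes CPOX and PPOX by 0.33 and 0.27. Of the regulators of HMOX1 none of 6 was called. MAFF, a small MAF partner of NRF2, differed by 0.39, and by 0.07 against control 2, NFE2L2, which encodes NRF2, by 0.11, the repressor BACH1 by -0.07 and KEAP1 by 0.10.

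Transcripts that carry an IRE outside the member set were also read, and none of 6 was called. In 2 of the 6, EPAS1 and SLC11A2, all manganese arrays lay below the controls, where 9.26% of all genes tested did so. SLC11A2, also in the uptake list above, differed by -0.46. EPAS1, which encodes the hypoxia-inducible factor HIF-2α and has an IRE in its 5′ untranslated region, stood at 8.62 ± 0.06 in manganese and 9.24 ± 0.41 in control. The difference was -0.62 (limma adjusted p 0.293), but -0.29 against control 2 and 0.09 at its other probe set. CDC42BPA differed by 0.13 and PFN2 by 0.11, and their probe sets ranged from -0.15 to 0.13 and from -0.19 to 0.11. ALAS2, named outside the rule for its hairpin, differed by 0.06. Of the 7 tested partners of FBXL5 none was called. The cullin gene CUL1 differed by -0.48 (limma adjusted p 0.386), CIAO3 by 0.28, SKP1 by -0.16 and RBX1 by -0.28, and RBX1 by 0.21 against control 2.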

How the data were processed

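Total RNA of SH-SY5Y cells was labelled with biotin and read on 6 Affymetrix arrays. The authors deposited log2 expression values. The submitters' processing notes name RMA and Affymetrix Expression Console as the tools. RMA corrects background, sets all arrays to one distribution and summarizes probes, so a shift shared by most genes is removed. Tool versions and genome build: not given in the sources used here. Gene names came from the platform annotation, which gave 1 symbol for 44988 probe sets, several for 1832 and none for 2473, and 44961 matched RefSeq (GRCh38.p14) by Entrez number.

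The 102 Affymetrix control probe sets were left out of all tests. Differences are manganese minus control, fitted with limma 3.58.1 in R 4.3.3 with group as the only term, over 29871 probe sets and over 13407 genes, with Benjamini-Hochberg adjustment over all of them and two-sided tests. The scripts were tested on simulated data. The labels call the arrays biological replicates without saying whether cultures were separate, so p-values measure the spread between these samples. Arrays give no counting depth, and their number limits the precision. The member genes, lists and alternatives were chosen with earlier results of these data known. From each list the text names up to 4 genes with the smallest p. Same-numbered arrays did not deviate together from their group means (r = -0.30, 0.15 and -0.27). No explanation was tested.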

Additional observations from a re-analysis of the deposited data

How the results depend on the processing

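Filters at the 20th or 60th percentile, no filter, trend and robust variance, centring on the array median, an adjusted p under 0.10 and the replicate block called 0 member genes and 0 member probe sets. Array weights, whose fit did not converge, called 1 member probe set as higher and 2 as lower, 2 member genes (TFR2, HMOX1) as higher and 2 (SLC25A37, TFRC) as lower, 10 other iron genes as higher and 8 as lower, and 2631 and 2733 probe sets over the array. Centring on housekeeping genes gave the same SE, 0.213, at every member probe set tested. It called 1 member gene and probe set in each direction, with 250 probe sets higher and 170 lower over the array. Over the array 31 probe sets were called higher and 1 lower, against 15 and 0 with the replicate block, 7 and 0 against control 2 alone, where the spread comes from the 3 manganese arrays only and the lone control is assumed to vary like them, and 48 and 6 at an adjusted p under 0.10. The labels do not say that equal replicate numbers mark shared cultures, and the block gave no member call. Leaving out each array in turn gave 0 to 50 higher and 0 to 25 lower over the array, 0 to 1 member gene and probe set lower, and 0 higher. For the other iron genes 0 were called in each of these fits. The causes were not tested.

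Of 1007 single values, 949 kept direction and side of the threshold, 30 turned sign and 28 came to pass the threshold, 22 of these with array weights. Against control 2 alone the sign turned for TFRC (0.23), FBXL5 (0.087 and 0.069), 2 FTL probe sets (-0.0027 and -0.0057), 1 SLC25A37 probe set (0.043), APP (0.044), PCBP4 (-0.038), PPOX (-0.044), RBX1 (0.21) and KEAP1 (-0.12). Without control 1 it turned for 8 values, FBXL5 counted at both probe sets and as a gene, whose ranges over the fits without 1 array were -0.51 to 0.024 and -0.48 to 0.035 for FBXL5, -0.22 to 0.031 for 1 ACO1 probe set, -0.13 to 0.11 for 1 SLC25A37 probe set, -0.0023 to 0.18 for HAMP, -0.042 to 0.11 for TMPRSS6 and -0.058 to 0.22 for KEAP1. With array weights it turned for ACO1 (0.066), SLC25A37 (0.17), CYBRD1 (0.027), HAMP (-0.081), TMPRSS6 (-0.10) and NFE2L2 (-0.0032), with housekeeping centring for SLC25A37 (0.029), and with the mean of probe sets for CDC42BPA (-0.0099) and PFN2 (-0.031). HMOX1 lay close to background and was not tested at the 60th percentile filter.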
